A study of Mus musculus with 8 samples.

Results

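The genes described here are listed for the cells of the brain's blood vessels, and some, such as *Tjp1* and *Bsg*, are made by other cells too. The list has 30 genes of endothelial cells, which line the vessels, and 7 genes of mural cells, the pericytes and smooth muscle cells that wrap around them. The genes were taken by symbol from this list of 37 symbols, and all 37 were present among the 15039 genes of the deposited table. The table holds 8 RNA sequencing libraries of prefrontal cortex (PFC), 4 from Rnf146-overexpressing and 4 from eGFP-overexpressing wild-type male mice of the strain C57BL/6NCrljOri. An adeno-associated virus (AAV) was injected on both sides of the PFC at 6 weeks of age, and the tissue was taken 4 weeks later. The virus of the first group carried mouse *Rnf146*, a ubiquitin ligase, together with eGFP, and that of the control group eGFP alone. The Rnf146 virus used the synapsin promoter (hsyn), which is active in neurons. Both groups received a virus and an injection, and the transgene differed between them. The paper adds that the Rnf146 mice used for sequencing had been checked for overexpression and showed social deficits. Tissue was analysed in bulk, so fewer vascular cells and less RNA per vascular cell cannot be told apart.

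Brain endothelial cells form the blood-brain barrier. Tight junctions seal the gaps between neighbouring cells, transporters carry glucose, lipids and hormones inward, efflux pumps send foreign compounds back to the blood, and transport by vesicles is kept low. The barrier is built and maintained through canonical Wnt/β-catenin signaling in endothelial cells, which is driven by Wnt ligands from neighbouring neural cells, and through signals from pericytes. RNF146 acts in the same pathway in many cell types, where it marks Axin for degradation after tankyrase has modified it.

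The deposited values run from 7.86 to 18.8 on a log2 scale and had been centred by replicate number: for every gene, the eGFP and the Rnf146 library of one number add up to the same sum as those of any other number, to within 1.4e-13. A gene therefore carries its mean and 4 pair differences, given below as the Rnf146 value minus the eGFP value. The sources used here do not say what mice of one number had in common, such as a cage or a day. Depth is unknown, as read numbers were not analysed here. Whether values are scaled to transcript length is not given in these sources, and their level is not compared between genes as an amount of RNA. *Rnf146* itself differed by 2.82, 2.51, 2.66 and 2.58 in the 4 pairs. Of all genes, 1.25% (188 of 15039) had an adjusted p of 0.1 or less in limma, fitted with a block for the pair, and such genes are referred to as called. Of these, 123 (0.818% of all genes) had higher and 65 (0.432%) lower values after *Rnf146* overexpression.

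None of the vascular genes was called. With limma, 0 of the 37 genes passed an adjusted p of 0.1, against 1.25% of all genes. At an unadjusted p under 0.05 there were 3 of 37 (8.11%), *Tjp1* and *Mfsd2a* with lower and *Cav1* with higher values, against 12.4% of all genes (6.45% higher and 5.98% lower). The mean difference was above 0 in 17 genes (45.9%, against 50.5% of all genes) and below 0 in 20. Its median over the 37 genes was -0.0010, beside 0.00086 over all genes, and its median size without sign was 0.045, beside 0.049. The adjusted p-values of limma ran from 0.192 for *Tjp1* to 0.998 for *Itm2a*, and 33 of the 37 were at 0.5 or more. When limma was run without the block, which takes the centred values for 8 independent libraries, 5 of the 37 (13.5%) were called, namely *Tjp1*, *Eng*, *Mfsd2a*, *Egfl7* and *Cav1*, against 21.5% of all genes.

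The intervals of the differences show how large a change remained possible. The 95% intervals of limma were between 0.186 (*Erg*) and 0.415 (*Slc2a1*) wide, with a median width of 0.253. They use a spread drawn toward that of other genes, so they can differ in width from intervals of the 4 pairs alone. Over the 37 genes, the lowest bound was -0.35 (*Mfsd2a*) and the highest 0.30 (*Cav1*). For 29 genes the interval lay within 0.25 of 0 on either side, and for 21 within 0.2. In 32 genes the mean difference was smaller than the SD of the 4 pairs. The median SD of the pairs was 0.113 for the 37 genes and 0.0981 for all genes.

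**Figure D1:**
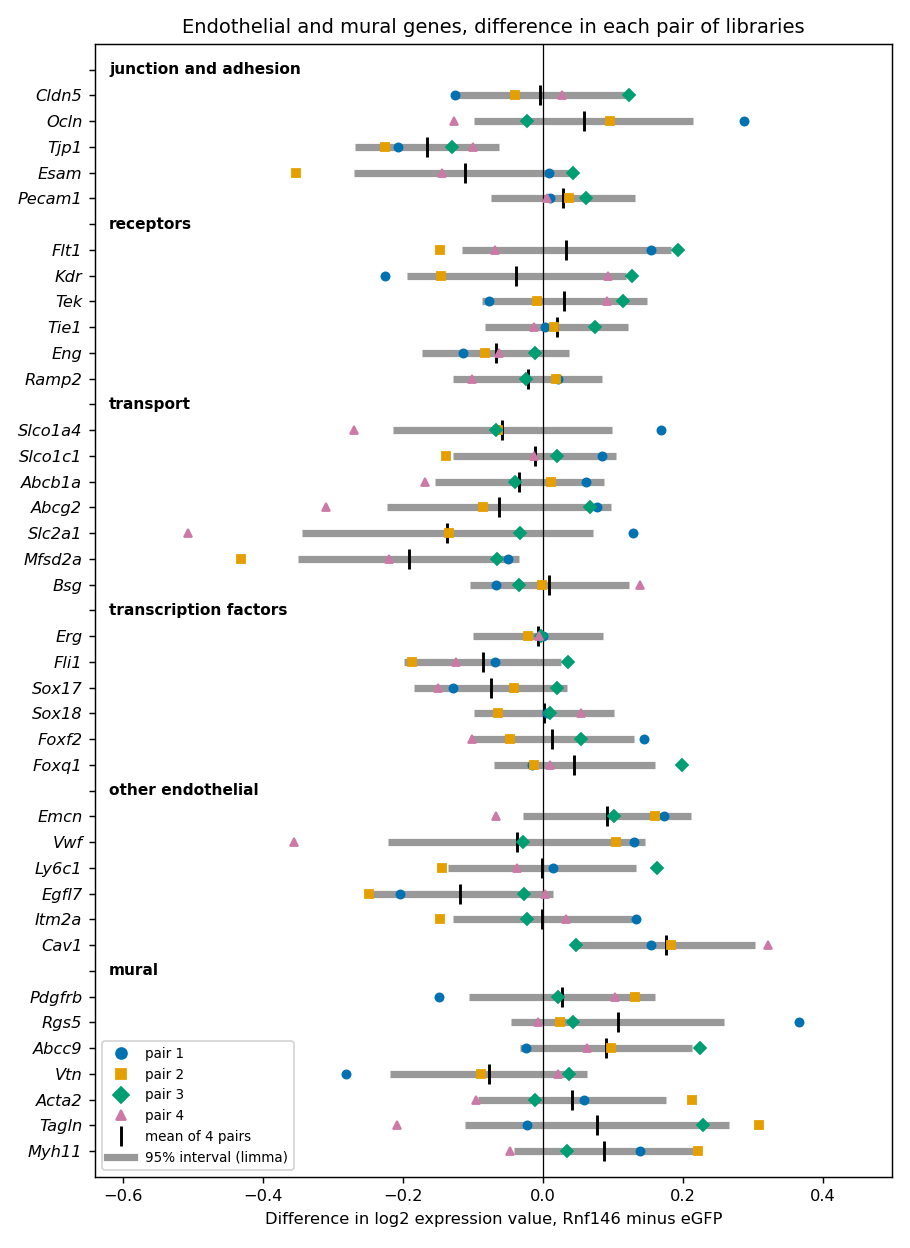
Difference in log2 expression value between Rnf146 and eGFP libraries (x axis) for the 37 endothelial and mural genes (y axis), by group. Coloured points are the 4 pairs, black ticks the mean and grey bars the 95% interval of limma. The bars of *Tjp1*, *Mfsd2a* and *Cav1* leave out 0, and those of the other genes cross it. Bars use a spread that limma draws toward that of other genes, and intervals from each gene's own 4 pairs were not computed.

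The 3 genes farthest from 0 were examined first. *Tjp1* (chromosome 7 of GRCm39, 64945898 to 65177529, minus strand) encodes ZO-1, the scaffold that ties tight junction proteins to the actin cytoskeleton, and is made by neurons and glia as well as by endothelial cells. Its values in the eGFP libraries were 11.80, 11.81, 11.76 and 11.75, and in the Rnf146 libraries 11.60, 11.59, 11.63 and 11.65. All 4 Rnf146 values lay below all 4 eGFP values. After the centring by pair, this only restates that the 4 differences had one sign, as in 20.6% of all genes. The pair differences were -0.21, -0.22, -0.13 and -0.10. Their average was -0.17 ± 0.060 (SD, n = 4 pairs), with an interval from -0.27 to -0.062, and limma gave *Tjp1* an unadjusted p of 0.0058 and an adjusted p of 0.192. Leaving out pairs in turn, the mean stayed between -0.19 and -0.15 and the adjusted p between 0.220 and 0.547. Without the block, the adjusted p of *Tjp1* was 0.0049.

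*Mfsd2a* (chromosome 4, 122840643 to 122855244, minus strand) encodes the carrier that brings lysophosphatidylcholine with omega-3 fatty acids into the brain and holds down vesicle transport across the endothelium. It had values of 9.67, 9.86, 9.68 and 9.76 in the eGFP libraries and of 9.62, 9.43, 9.61 and 9.54 in the Rnf146 libraries. All 4 pair differences were below 0, but they were uneven. They were -0.43 in pair 2 and -0.22 in pair 4 but -0.049 in pair 1 and -0.066 in pair 3. The mean of *Mfsd2a* was -0.19 ± 0.18 (SD, n = 4 pairs), with an interval from -0.35 to -0.033, an unadjusted p of 0.023 and an adjusted p of 0.309 in limma. Without pair 2 its mean was -0.11.

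*Cav1* (chromosome 6, 17306140 to 17341451, plus strand) encodes caveolin-1, the coat protein of caveolae, the vesicles that *Mfsd2a* is known to hold down in brain endothelium. Its values were 9.15, 9.14, 9.21 and 9.07 in the eGFP libraries and 9.31, 9.32, 9.26 and 9.39 in the Rnf146 libraries. All 4 pair differences were above 0. *Cav1* had the highest mean difference of the 37 genes, at 0.18 ± 0.11 (SD, n = 4 pairs), with 0.16, 0.18, 0.047 and 0.32 in the 4 pairs. The interval ran from 0.051 to 0.30, with an unadjusted p of 0.012 and an adjusted p of 0.241 in limma for *Cav1*, and 0.020 without the block.

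The promoters of the 3 genes, from 250 bases before to 50 bases after the start site in RefSeq on GRCm38.p6, are printed because these genes were the farthest from 0 and because factors of the Wnt pathway and of endothelial identity bind DNA through short known motifs. Capitals mark matches on either strand to CTTTGA or CTTTGT (TCF/LEF, the DNA-binding partners of β-catenin), CCGGAA or CAGGAA (the ETS family, to which *Erg* and *Fli1* belong) and ACAATG or ACAATA (the SOX family). For *Cav1*, whose 2 start sites in RefSeq give 2 windows, the upstream one is shown.
Tjp1, chr7:65371195-65371494, minus strand: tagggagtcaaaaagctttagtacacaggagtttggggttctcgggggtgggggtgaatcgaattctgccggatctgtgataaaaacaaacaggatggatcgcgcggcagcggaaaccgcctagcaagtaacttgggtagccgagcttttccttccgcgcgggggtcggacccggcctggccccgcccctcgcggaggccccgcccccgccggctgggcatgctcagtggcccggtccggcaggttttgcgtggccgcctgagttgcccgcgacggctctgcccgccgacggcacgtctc
Mfsd2a, chr4:122961139-122961438, minus strand: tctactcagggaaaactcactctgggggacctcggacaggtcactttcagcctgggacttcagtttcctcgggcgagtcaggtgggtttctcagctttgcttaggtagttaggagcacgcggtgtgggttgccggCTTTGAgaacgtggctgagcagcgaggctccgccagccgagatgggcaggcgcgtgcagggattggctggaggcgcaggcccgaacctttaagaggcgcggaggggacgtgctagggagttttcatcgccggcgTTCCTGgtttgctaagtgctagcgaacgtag
Cav1, chr6:17306085-17306384, plus strand: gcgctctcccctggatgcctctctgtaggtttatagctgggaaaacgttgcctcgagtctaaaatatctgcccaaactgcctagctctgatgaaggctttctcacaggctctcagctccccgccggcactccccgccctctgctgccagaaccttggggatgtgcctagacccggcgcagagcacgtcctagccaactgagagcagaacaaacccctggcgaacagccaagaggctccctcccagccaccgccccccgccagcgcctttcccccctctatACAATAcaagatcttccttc
The *Mfsd2a* window held CTTTGA from base 136 of its 300 and, from base 270, the ETS letters on the opposite strand. The *Cav1* window held ACAATA from base 281, and the *Tjp1* window held none of the 6 words. For *Tjp1* this was the only window, and start sites outside it were not searched. RefSeq windows were found for 25 of the 37 genes, 34 windows in all. A TCF/LEF word was present in 9 of the 34 (26.5%) and in 31.2% of all 32851 windows, an ETS word in 15 (44.1%) and in 41.4%, and a SOX word in 6 (17.6%) and in 19.7%. The 8 genes whose windows held a TCF/LEF word were *Abcb1a*, *Egfl7*, *Eng*, *Ly6c1*, *Mfsd2a*, *Rgs5*, *Slco1c1* and *Tek*. These are matches of letters and describe no binding.

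**Figure D2:**
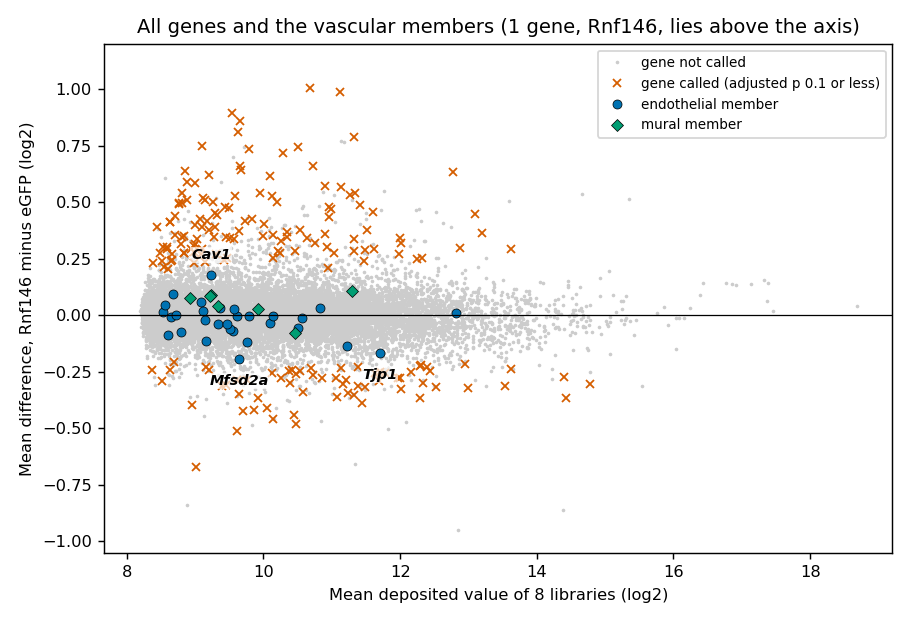
Mean difference between Rnf146 and eGFP libraries (y axis, log2) against the mean deposited value of the 8 libraries (x axis, log2) for all genes, with called genes as crosses, the 30 endothelial genes as circles and the 7 mural genes as diamonds. The vascular genes lie between -0.19 and 0.18, inside the cloud of genes that were not called, and *Rnf146* at 2.64 is above the axis.

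Of the 5 junction and adhesion genes, those apart from *Tjp1* had intervals that crossed 0. *Cldn5* (chromosome 16, 18595597 to 18597012, plus strand) encodes claudin-5, the main tight junction protein of brain endothelium. It differed by -0.12, -0.039, 0.12 and 0.027 across the pairs. The average, -0.0035 ± 0.10 (SD, n = 4 pairs), had an interval from -0.13 to 0.12, and 2 pairs were above and 2 below 0. *Ocln*, which encodes the tight junction protein occludin, ranged from 0.29 in pair 1 to -0.13 in pair 4 around a mean of 0.059. *Esam*, an adhesion molecule of endothelial junctions, averaged -0.11 ± 0.18 (SD, n = 4 pairs) and owed this to pairs 2 and 4, at -0.35 and -0.14, while the others were at 0.0086 and 0.043. *Pecam1*, the adhesion molecule CD31, was above 0 in all 4 pairs, yet by 0.0066 to 0.061 only, with a mean of 0.029 and an interval from -0.074 to 0.13.

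Genes that had the same direction in all 4 pairs numbered 5 of 37 (13.5%): *Pecam1* and *Cav1* with higher values and *Tjp1*, *Eng* and *Mfsd2a* with lower values. Among all genes the share was 20.6%, with 10.4% higher and 10.2% lower.

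Receptors of vascular growth factors had the lowest spread between pairs of the 6 groups, with a median SD of 0.073. In limma, 0 of the 6 genes were called or had an unadjusted p under 0.05, against 1.25% and 12.4% of all genes. *Flt1* and *Kdr* encode the receptors 1 and 2 of vascular endothelial growth factor. *Flt1* differed by 0.16, -0.15, 0.19 and -0.068, and *Kdr* by -0.23, -0.15, 0.13 and 0.093, with means of 0.034 and -0.038 that were far smaller than their SDs of 0.17 and 0.17. *Tek* and *Tie1*, the angiopoietin receptor and its partner, averaged 0.031 and 0.020. *Eng*, which encodes endoglin, a co-receptor for TGF-β and BMP ligands, had a value below 0 in all 4 pairs, at -0.11, -0.082, -0.012 and -0.062. Its mean of -0.067 ± 0.043 (SD, n = 4 pairs) was larger than the spread of the pairs, but limma with the block, which borrows spread from other genes, gave *Eng* an adjusted p of 0.603, against 0.078 without the block. *Ramp2*, which forms the adrenomedullin receptor with its partner, averaged -0.021.

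Transport genes were the group with the widest spread, with a median SD of 0.18, and with the lowest median difference, -0.058. Of its 7 genes, 6 had a mean below 0. *Slc2a1* (chromosome 4, 118965908 to 118996365, plus strand) encodes the glucose transporter GLUT1. Its differences were 0.13, -0.13, -0.033 and -0.51, and they averaged -0.14 ± 0.27 (SD, n = 4 pairs), with an interval from -0.34 to 0.071 and an adjusted p of 0.588 in limma. Pair 4 made nearly all of this mean, which was -0.013 without it. Pair 4 was also the lowest pair for the efflux pumps *Abcb1a* (P-glycoprotein) and *Abcg2*, at -0.17 and -0.31, and for *Slco1a4*, an organic anion transporter, at -0.27. *Slco1c1*, which carries thyroid hormone, was at -0.012 in this pair and at -0.14 in pair 2. In pair 1, by contrast, 5 of the 7 genes were above 0, up to 0.17 for *Slco1a4*. *Bsg* encodes basigin, the partner of monocarboxylate transporters, is made by many cell types and was the only one of the 7 above 0 in pair 4, at 0.14. The median of the group was 0.078, -0.086, -0.033 and -0.22 in the 4 pairs, so that its sign depended on the pair. *Abcb1a* shares much of its sequence with *Abcb1b*, and *Ly6c1* with *Ly6c2*, so the split of reads within these gene pairs is uncertain.

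**Figure D3:**
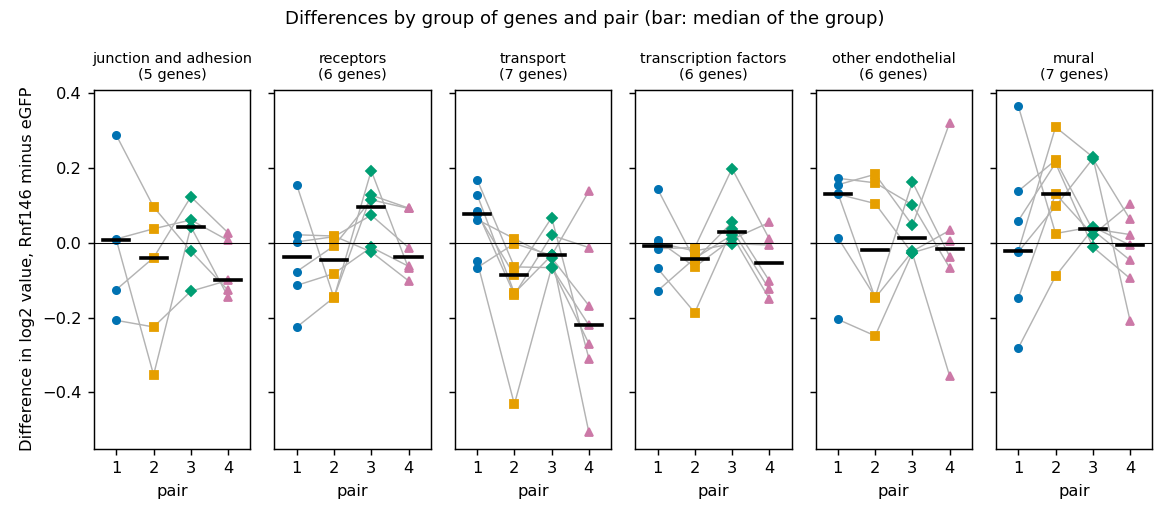
Difference in log2 value between Rnf146 and eGFP libraries (y axis) in pairs 1 to 4 (x axis) for each gene, in 6 panels by group. Grey lines join the values of a gene and black bars are the median of the group. The transport median is 0.078 in pair 1 and -0.22 in pair 4; the mural median is highest in pair 2, at 0.13.

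The 6 transcription factors of endothelial identity all had intervals that crossed 0. *Erg*, an ETS factor that keeps endothelial cells in their state, had the narrowest range of the 37 genes, from -0.021 to 0.00047, averaging -0.0072 ± 0.0098 (SD, n = 4 pairs) and an interval from -0.10 to 0.086. *Fli1*, the other ETS factor, averaged -0.086, and was below 0 in 3 pairs. *Sox17*, which directs arterial identity and is known to act with Wnt signaling at the barrier, averaged -0.074 ± 0.079 (SD, n = 4 pairs), with -0.13, -0.041, 0.021 and -0.15 in the 4 pairs. Its relative *Sox18* averaged 0.0017. The forkhead genes *Foxf2* and *Foxq1*, which take part in the making of the barrier, averaged 0.013 and 0.045, and the mean of *Foxq1* came from pair 3, at 0.20, with the other pairs between -0.015 and 0.011. Of the 6, 0 were called by limma or had an unadjusted p under 0.05, against 1.25% and 12.4% of all genes.

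The other endothelial genes apart from *Cav1* also had intervals that crossed 0. *Egfl7*, a factor that endothelial cells secrete into their matrix, averaged -0.12 ± 0.13 (SD, n = 4 pairs), with -0.20 and -0.25 in the first pair and the second but -0.026 and 0.0038 in the others, and an adjusted p of 0.450 in limma. *Emcn*, the endothelial sialomucin endomucin, was above 0 in 3 pairs, at 0.17, 0.16 and 0.10, and at -0.067 in pair 4, with a mean of 0.092. *Vwf*, the clotting factor stored in endothelial cells, was highest in pair 1, at 0.13, and lowest in pair 4, at -0.36, with an SD of 0.22 around its mean of -0.037. *Ly6c1*, a surface antigen of brain capillaries, and *Itm2a*, a membrane protein of brain endothelium, had means of -0.0010 and -0.00077.

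Over the 30 endothelial genes together, 11 had a mean above 0 and 19 below. The median difference was -0.0093. By pair, the median of the 30 genes was 0.0096, -0.055, 0.021 and -0.064, and 19, 8, 17 and 10 genes were above 0. Their median was thus above 0 in pairs 1 and 3 and below 0 in pairs 2 and 4.

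Mural genes had a mean above 0 in 6 of the 7 cases, against 50.5% of all genes. In limma, 0 of the 7 were called or had an unadjusted p under 0.05, against 1.25% and 12.4% of all genes. The same direction in all 4 pairs was seen in 0 of the 7, against 20.6% of all genes. With so few genes, these counts of 0 are near the shares of all genes. *Rgs5*, a regulator of G protein signaling that marks pericytes, had the highest mean of the 7, 0.11 ± 0.17 (SD, n = 4 pairs). Its differences were 0.37, 0.025, 0.043 and -0.0060, and without pair 1 its mean was 0.021. *Pdgfrb*, the receptor through which pericytes are recruited, averaged 0.027, and *Abcc9*, a subunit of potassium channels in pericytes, 0.091 with 0.23 in pair 3. *Vtn*, which encodes vitronectin, was the mural gene with a mean below 0, -0.077 ± 0.15 (SD, n = 4 pairs), from -0.28 in pair 1 to 0.038 in pair 3. The 3 genes of the contractile apparatus of smooth muscle were all highest in pair 2 and lowest in pair 4. *Acta2* (smooth muscle actin) was at 0.21 in pair 2 and -0.095 in pair 4. *Tagln* (transgelin) was at 0.31 and -0.21 in these pairs, and *Myh11* (smooth muscle myosin) at 0.22 and -0.046. The mean of the 3 genes was 0.059, 0.25, 0.084 and -0.12 in the 4 pairs, or 0.069 ± 0.15 (SD, n = 4 pairs). The 4 pericyte genes averaged 0.037 ± 0.043. The median difference of the 7 mural genes was 0.077, and -1.9e-05 without pair 2.

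Further vascular genes were read from 5 lists of 123 different symbols, of which 111 were in the table and some are on more than one list. Their median difference was 0.0042, with 58 above and 53 below 0. Of all genes, 1.25% were called and 12.4% had an unadjusted p under 0.05. Among the 39 further endothelial genes, 21 were above 0 and 18 below, with a median of 0.0065. Of 21 further mural genes, 12 were above 0, 0 were called and 2 had an unadjusted p under 0.05. Of 13 genes of arterial or venous endothelium, 4 were above 0, 9 were below, 0 were called and 1 had an unadjusted p under 0.05. Among 25 ligands, receptors and oxygen-sensing factors of vessel growth, 15 were above 0 and 3 had an unadjusted p under 0.05. Of these 25 genes 2 were called, against 1.25% of all genes. *Ednrb*, the endothelin B receptor, which astrocytes make too, was higher by 0.44, 0.33, 0.17 and 0.21 in the 4 pairs (adjusted p = 0.082 in limma). *Hif3a*, a hypoxia-inducible factor, was lower by a mean difference of -0.31 ± 0.13 (SD, n = 4 pairs; adjusted p = 0.070). Of 17 genes of the Wnt pathway at the barrier, from ligands and their co-receptors to target genes, 8 were above 0 and 9 below, and 0 were called by limma or had an unadjusted p under 0.05, with a median of -0.0041 and a range from -0.14 to 0.099.

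The markers of other cells in the same tissue give the setting of these values. All 11 markers of cortical excitatory neurons were in the table, and their mean difference was -0.17 ± 0.075 (SD, n = 4 pairs). The 13 striatal markers averaged -0.028, 1.16, 0.66 and 0.30 in the 4 pairs, the 12 oligodendrocyte markers -0.15, 0.47, 0.90 and 0.54, and the 6 septal markers found, of 12, 0.52, 0.70, 0.29 and 0.58. The 30 endothelial genes averaged 0.016, -0.071, 0.032 and -0.072 in the same pairs. Called were 2 of the 11 excitatory neuron markers, with lower values, and 2 of the 13 striatal and 5 of the 6 septal markers, with higher values. Of the 12 oligodendrocyte markers 0 were called, and of all genes 1.25%. Of the 8 interneuron markers, 5 were below 0 and 3 above, with a median of -0.042, and those above were *Gad1*, *Gad2* and *Slc32a1*, all called, at 0.45, 0.64 and 0.53. The 3 ependymal markers found, of 9, averaged 0.18 ± 0.077, and 1 was called, with higher values. Of the 2 choroid plexus markers found, of 7, *Clic6* was called, at 0.54, and the other was at -0.043. Astrocyte markers averaged -0.025 ± 0.053 over 12 genes, while all 14 markers of microglia had a mean below 0, averaging -0.16 ± 0.052, and *C1qb* was called. Of 13 markers of the fibroblasts around vessels and in the meninges, 12 had a mean below 0, averaging -0.082 ± 0.088, and *Cemip*, which encodes an enzyme of hyaluronan breakdown, was called, at -0.28 ± 0.079 (SD, n = 4 pairs; adjusted p = 0.064 in limma). The 5 hemoglobin and heme genes of red blood cells, a sign of blood left in the tissue, averaged -0.048, 0.097, 0.11 and -0.19 in the 4 pairs. The part of the other cells in the vascular values was not tested.

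**Figure D4:**
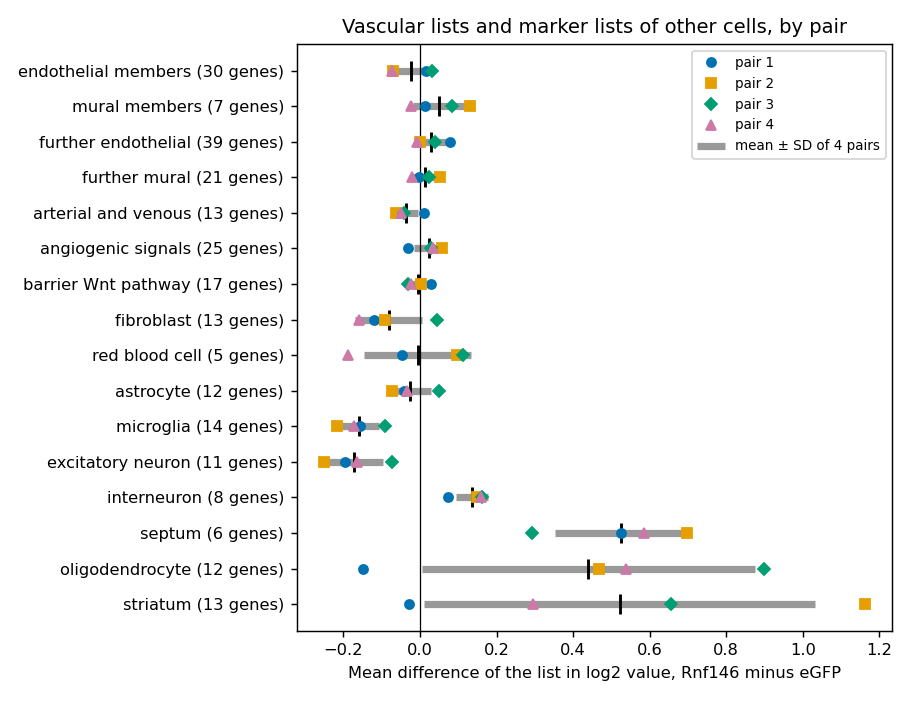
Mean difference in log2 value between Rnf146 and eGFP libraries (x axis) for lists of vascular genes and of markers of other cells (y axis, with the number of genes). Coloured points are the 4 pairs, black ticks and grey bars their mean ± SD. The 7 vascular lists lie between -0.072 and 0.13 in every pair, while the striatal list reaches 1.16 in pair 2 and the oligodendrocyte list 0.90 in pair 3.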

How the data were processed

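PFC RNA of 8 mice, 4 per virus, was sequenced with a stranded mRNA kit. The authors used Cutadapt for trimming and Salmon 1.9.0 for quantification against GENCODE vM30 (GRCm39). Their notes also name DESeq2, but the transformation and the pair centring of the deposited log2 values are not given in the sources used here. Count tests were not run, since the table holds no counts.

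Groups and replicate numbers came from the sample labels, and all 8 columns were matched by name. The pairing comes from these numbers and from the centring, which fixes the correlation of same-numbered libraries, so the replicate block was part of the main test. limma 3.58.1 in R 4.3.3 (lmFit, eBayes with trend) was run over 15039 genes with Benjamini-Hochberg adjustment, and genes were called at an adjusted p of 0.1. It was tested on simulated data. The block leaves 3 residual degrees of freedom, and limma draws the spread of a gene's 4 pairs toward that of other genes. Its p-values and intervals use this moderated spread, so they are not those of the 4 pairs alone. Flipping the signs of 4 pairs exactly allows no two-sided p under 0.125.

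All 37 genes are named; genes of the further vascular lists are named where called, except for a result that is not reported here. The members and lists were chosen with earlier results of these data known. Coordinates are those of GENCODE vM39 (GRCm39), promoters those of RefSeq (GRCm38.p6). The alternatives were no replicate block, median centring, leaving out the lowest 25% of genes by value, no variance trend, array weights, an adjusted p of 0.05 and leaving out each pair.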

Additional observations from a re-analysis of the deposited data

Results flagged for a closer look

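Of 45 sets of 4 pair values examined (the 37 genes and the medians of 8 groups), 3 had a pair far from the other 3 by Dixon's test at 95%, and chance gives about 1 in 20. *Foxq1* was at 0.20 in pair 3, with the others between -0.015 and 0.011. *Rgs5* was at 0.37 in pair 1, with the others between -0.0060 and 0.043. The median of the 6 receptor genes was 0.095 in pair 3, with the others between -0.045 and -0.037.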

How the results depend on the processing

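Without the replicate block, 3226 genes were called in place of 188, and 5 of the 37 vascular genes in place of 0. With array weights 355 genes were called, and at an adjusted p of 0.05 there were 80. Median centring, the filter on low values (which left 29 of the 37 genes) and no variance trend gave 191, 156 and 177. Leaving out each pair gave 14 to 421 calls among all genes, 14 without pair 4, 42 without pair 2 and 421 without pair 1. In every alternative with the block limma called 0 vascular genes, and 3 had an unadjusted p under 0.05 with all pairs. The median difference of the 37 genes was -0.020 to 0.010 with each pair left out, that of the endothelial genes -0.033 to 0.0036, and that of the mural genes -1.9e-05 to 0.10, the lowest being without pair 2. Of the 37 genes, 18 kept the sign of their mean under every alternative, *Tjp1*, *Mfsd2a* and *Cav1* among them. Array weights turned the sign of *Cldn5* (0.0068) and *Foxf2* (-0.012). With each pair left out, the mean changed sign in 19 genes and ran from -0.046 to 0.037 for *Cldn5*, -0.018 to 0.12 for *Ocln*, -0.020 to 0.094 for *Flt1*, -0.093 to 0.025 for *Kdr*, -0.036 to 0.0055 for *Ramp2*, -0.13 to 0.013 for *Slco1a4*, -0.044 to 0.031 for *Slco1c1*, -0.065 to 0.011 for *Abcb1a*, -0.11 to 0.020 for *Abcg2*, -0.034 to 0.035 for *Bsg*, -0.016 to 0.024 for *Sox18*, -0.031 to 0.051 for *Foxf2*, -0.0057 to 0.066 for *Foxq1*, -0.093 to 0.069 for *Vwf*, -0.056 to 0.047 for *Ly6c1*, -0.045 to 0.048 for *Itm2a*, -0.0075 to 0.086 for *Pdgfrb*, -0.016 to 0.087 for *Acta2*, -1.9e-05 to 0.17 for *Tagln*. The cause was not tested. Depth is unknown, so what counting error adds to these spreads cannot be given.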
